A study of Mus musculus with 9 samples.

Results

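Nsd2 encodes a histone methyltransferase of the NSD family and lies on mouse chromosome 5 among genes with unrelated functions. The genes described here are its neighbours Fgfr3, Letm1, Nelfa, Tacc3, Slbp and Tmem129, which were chosen by name as genes beside Nsd2. All 6 were found among the 12842 genes of the deposited table, Nelfa under its earlier symbol Whsc2 and Nsd2 under its earlier symbol Whsc1. The human counterparts of this stretch are known for rearrangements in cancer: a recurrent translocation in multiple myeloma activates NSD2 together with FGFR3, and fusions of FGFR3 with TACC3 occur in brain and bladder tumours. Deletion of the region in people causes Wolf-Hirschhorn syndrome, after which the older gene symbols were named. The comparisons ask whether mRNA of the genes beside Nsd2 changed when Nsd2 was silenced or when cells were treated with a compound.

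The RNA came from NPK cells, a mouse prostate cancer line that the authors derived from metastases in the lungs of NPK mice. Those mice carry engineered alleles, among them a tamoxifen-inducible Cre and a YFP lineage reporter, and every group shares the alleles of the line. Libraries came, 3 for each group, from control cells, from cells with shRNA-mediated silencing of Nsd2 (shNsd2) and from cells given a compound whose label begins with MCTP. The labels give the MCTP libraries the compound numbers 39, 40 and 41, 1 library each, whereas the inhibitor described in the study carries number 39, and the source field of the shNsd2 libraries reads Nsd2 for 1 library, Nsd3 for the next and Nsd4 for the last. The study's methods name an shRNA against luciferase as the control for silencing, and DMSO as the vehicle for cultured human cells, but the labels do not say which of these the control libraries received. The MCTP dose and time in these cells and the shRNA clone are not given in the sources used here. A single cell line was profiled, and nothing states that the libraries of a group came from separate cultures, so p-values measure only the spread between these libraries, which may be technical.

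Values are on a log2 scale, and the depth of each library is unknown. Whether and how the authors scaled them between libraries is not given in the sources used here. Groups were compared with limma, a moderated linear model fitted to all genes, and a gene was called when its p-value adjusted by the Benjamini-Hochberg method was below 0.05. When genes were split by mean level into 10 bins, the standard deviation between libraries of a group had a median of 0.0296 in the lowest bin and 0.0723 in the third, so the spread was smaller among low genes. Fgfr3 lies in the second bin, where the median was 0.0558. The labelled cell type was compared with marker genes. Of 8 epithelial and prostate markers 6 were in the table, and the luminal keratins Krt8 and Krt18 had control means of 16.28 and 15.38, with the adhesion gene Cdh1 at 11.77. Epcam was near the bottom of the table, at 3.55 in control cells, while Krt5 was not among the genes analysed here. All 4 mesenchymal markers were present, and Vim, which encodes the intermediate filament vimentin, had a control mean of 17.21. Ptprc and Pecam1 were not among the genes analysed here, Cdh5 was at 3.50 and Cd68 at 6.53 in control cells. The basal keratin gene Krt14 had means of 8.91 in control, 9.69 in shNsd2 and 10.09 in MCTP cells, and the other mesenchymal markers Cdh2, Col1a1 and Acta2 had control means of 11.52, 8.20 and 5.94. Markers of both classes were thus present, with values spread widely within each class.

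Libraries of a group differed in how expression related to base composition. The correlation, across 12513 genes, of a library's deviation from the gene means with GC content was -0.578, -0.29 and -0.156 in the control libraries, 0.0898, 0.113 and -0.29 in the shNsd2 libraries, and 0.446, -0.259 and 0.546 in the MCTP libraries. Genes are not independent replicates, and these values only describe the libraries. The second MCTP library, of compound number 40, differed from the other MCTP libraries in this measure and lay within the range of the control libraries. The last shNsd2 library likewise differed from the other shNsd2 libraries and lay within that range. For the second MCTP library this did not hold gene by gene: for Nelfa and Tacc3 it was the MCTP library farthest from the control libraries.

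The order of the genes was read from GENCODE M21 on GRCm38. The submitters' processing notes name build mm9, and the deposited table holds no coordinates. From Slbp to Nelfa the region spans 301.5 kb of chromosome 5, from 33634952 to 33936413. Slbp (ENSMUSG00000004642.7) lies from 33634952 to 33652574 and Tmem129 (ENSMUSG00000019295.7) from 33653216 to 33658416, both on the - strand and 641 bp apart. Tacc3 (ENSMUSG00000037313.9), on the + strand from 33658128 to 33678995, is head to head with Tmem129 and overlaps it by 289 bp, all of which is untranslated exon of both genes. Fgfr3 (ENSMUSG00000054252.9) follows on the + strand from 33721674 to 33737068. It is tail to tail with Letm1 (ENSMUSG00000005299.5), on the - strand from 33739673 to 33782817, with 2604 bp between them. Letm1 and Nsd2 (ENSMUSG00000057406.8), on the + strand from 33820725 to 33897975, are head to head, 37907 bp apart. Nelfa (ENSMUSG00000029111.6), on the - strand from 33897916 to 33936413, ends inside the end of Nsd2, with 60 bp of untranslated exon in common. The library kit is not stated to keep strand, so reads from these 2 overlaps cannot be assigned to 1 gene.

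**Figure D1:**
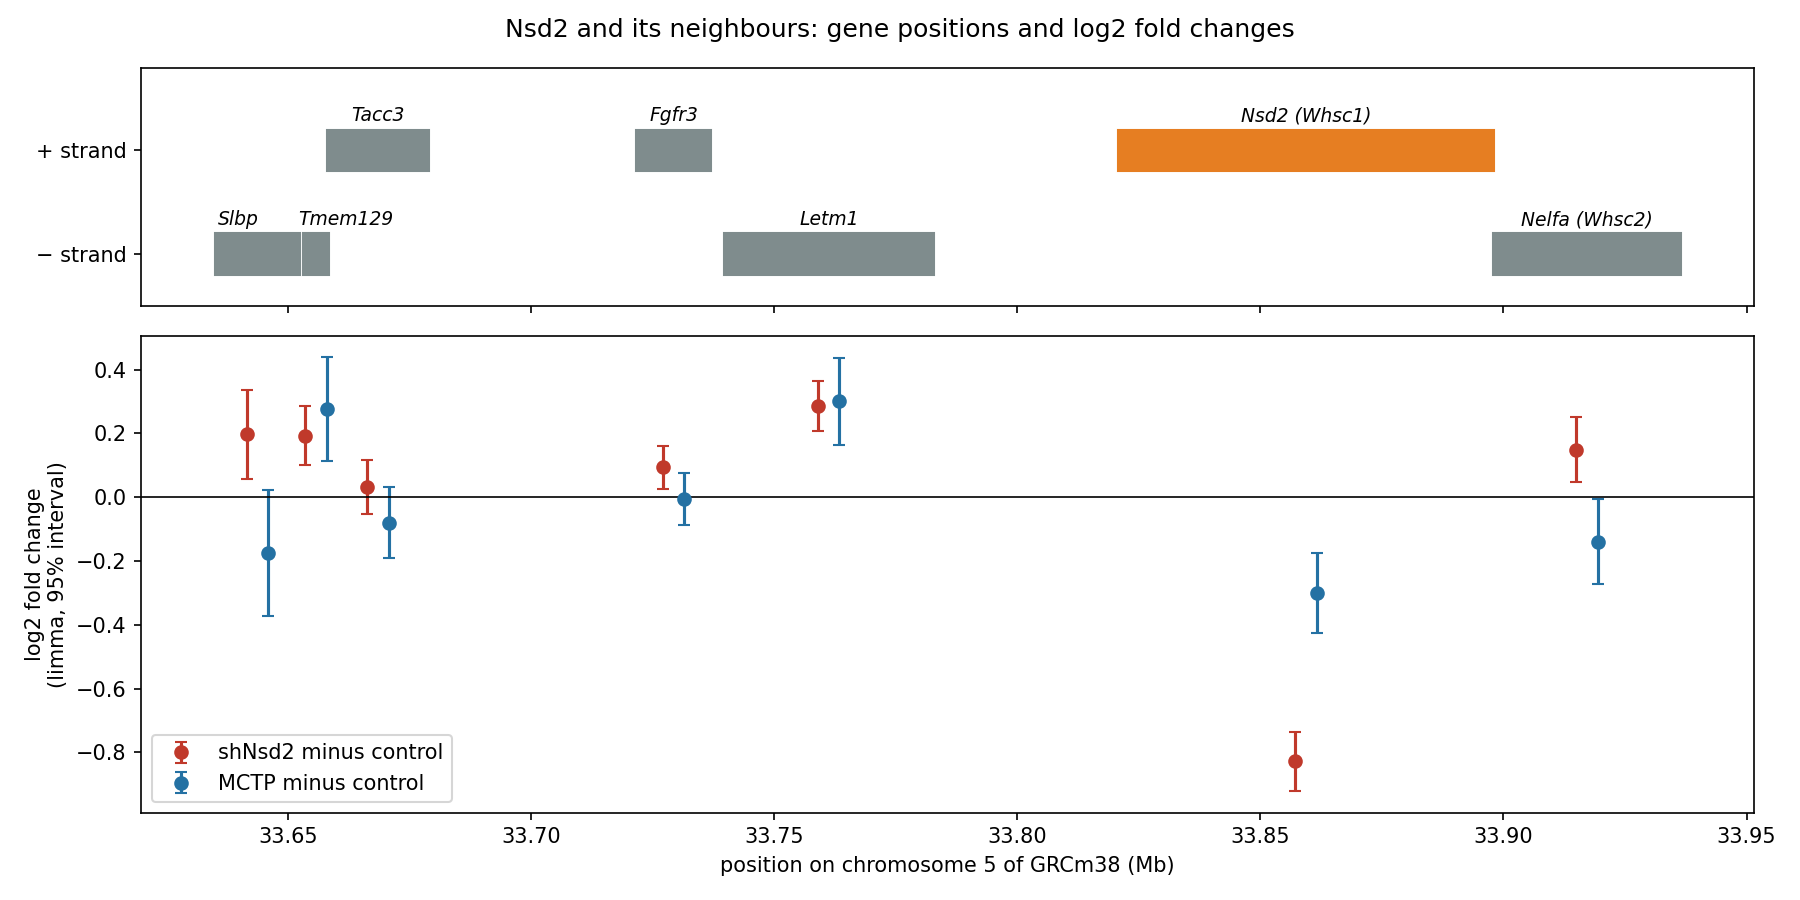
Positions of Nsd2 and its 6 neighbours on chromosome 5 of GRCm38 (upper panel, boxes from gene start to gene end, by strand) and their log2 fold changes against control cells (lower panel, points with 95% intervals from limma, 3 libraries a group). Nsd2 is the lowest point in both comparisons, at -0.83 for shNsd2 and -0.30 for MCTP, and Letm1 is the highest, at 0.28 and 0.30.

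The neighbours differed widely in level. Per kilobase of the longest coding transcript, the log2 control level was 10.59 for Tacc3, 10.20 for Slbp, 9.48 for Nsd2, 8.82 for Nelfa, 8.46 for Tmem129, 8.30 for Letm1 and 2.77 for Fgfr3. This order assumes that the deposited values are not already divided by length, which the sources used here do not give. Without that division the control means were 12.44 for Nsd2, 12.13 for Tacc3 and 11.13 for Slbp, and Fgfr3 was the lowest on either scale, at 4.85. Each step in the order per kilobase was larger than the standard deviations between control libraries, which ran from 0.0253 for Letm1 to 0.131 for Slbp.

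The silencing was checked at Nsd2 first. Its log2 expression was 12.48, 12.43 and 12.42 in control cells, 11.56, 11.61 and 11.68 in shNsd2 cells and 12.15, 12.21 and 12.07 in MCTP cells. Every shNsd2 library was below every MCTP library, and every MCTP library was below every control library. Against control, the log2 fold change came to -0.83 (standard error 0.041, adjusted p = 2.26e-06) for shNsd2 and -0.30 (standard error 0.054, adjusted p = 0.00562) for MCTP, and shNsd2 minus MCTP was -0.53 (standard error 0.056, adjusted p = 4.24e-04). With GC correction the MCTP value shrank to -0.181 (adjusted p = 0.00239) and the shNsd2 value was -0.762. In bulk RNA, fewer cells expressing a gene and less RNA per cell cannot be told apart.

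The question for shNsd2 against control was whether the genes beside Nsd2 also changed when its mRNA was lowered. None of the 6 neighbours fell with Nsd2: Letm1, Slbp, Tmem129, Nelfa and Fgfr3 rose, by 0.28 to 0.094 on the log2 scale, and Tacc3 did not pass the test. Thus 5 of 6 neighbours were called, all 5 of them higher, where 47.8% of the 12205 genes tested were called, 23.1% higher and 24.8% lower. Leaving out each library in turn left 2 to 4 neighbours called, and without the first shNsd2 library only Letm1 and Tmem129 were, with 4462 genes called in all. The median log2 fold change of the neighbours was 0.171, against 0.00199 for all genes tested. The groups did not overlap for 5 neighbours, as for 57.2% of all genes. All 6 neighbours passed the filter on low values. Where so large a share of all genes is called, a count of 5 in a list of 6 is a description only.

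The question for MCTP against control was whether these genes changed with a compound whose label shares its prefix with the study's NSD2 inhibitor. Letm1 and Tmem129 rose, by 0.30 and 0.28 on the log2 scale, and no neighbour was called lower. So 2 of 6 neighbours were called, both higher, where 35.2% of the 12216 genes tested were called, 18.0% higher and 17.2% lower. The median log2 fold change of the neighbours was -0.0423, against -0.0062 for all genes. Groups did not overlap for 4 neighbours, Letm1, Tmem129, Nelfa and Tacc3, as for 50.6% of all genes. The control libraries are the same in both comparisons, so the values of the 2 comparisons are not independent. Without the second MCTP library 7384 genes were called, against 4305 with it, and without another library in turn between 2046 and 2842 were called.

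The direct test of shNsd2 against MCTP gave 3 of 6 neighbours called, Slbp, Nelfa and Fgfr3, all higher in shNsd2 cells, where 43.2% of the 12217 genes tested were called, 20.6% higher and 22.6% lower. Their log2 differences were 0.37, 0.29 and 0.099. The median over the neighbours was 0.105, against 0.0072 for all genes, and groups did not overlap for 4 neighbours, as for 55.0% of all genes.

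**Figure D2:**
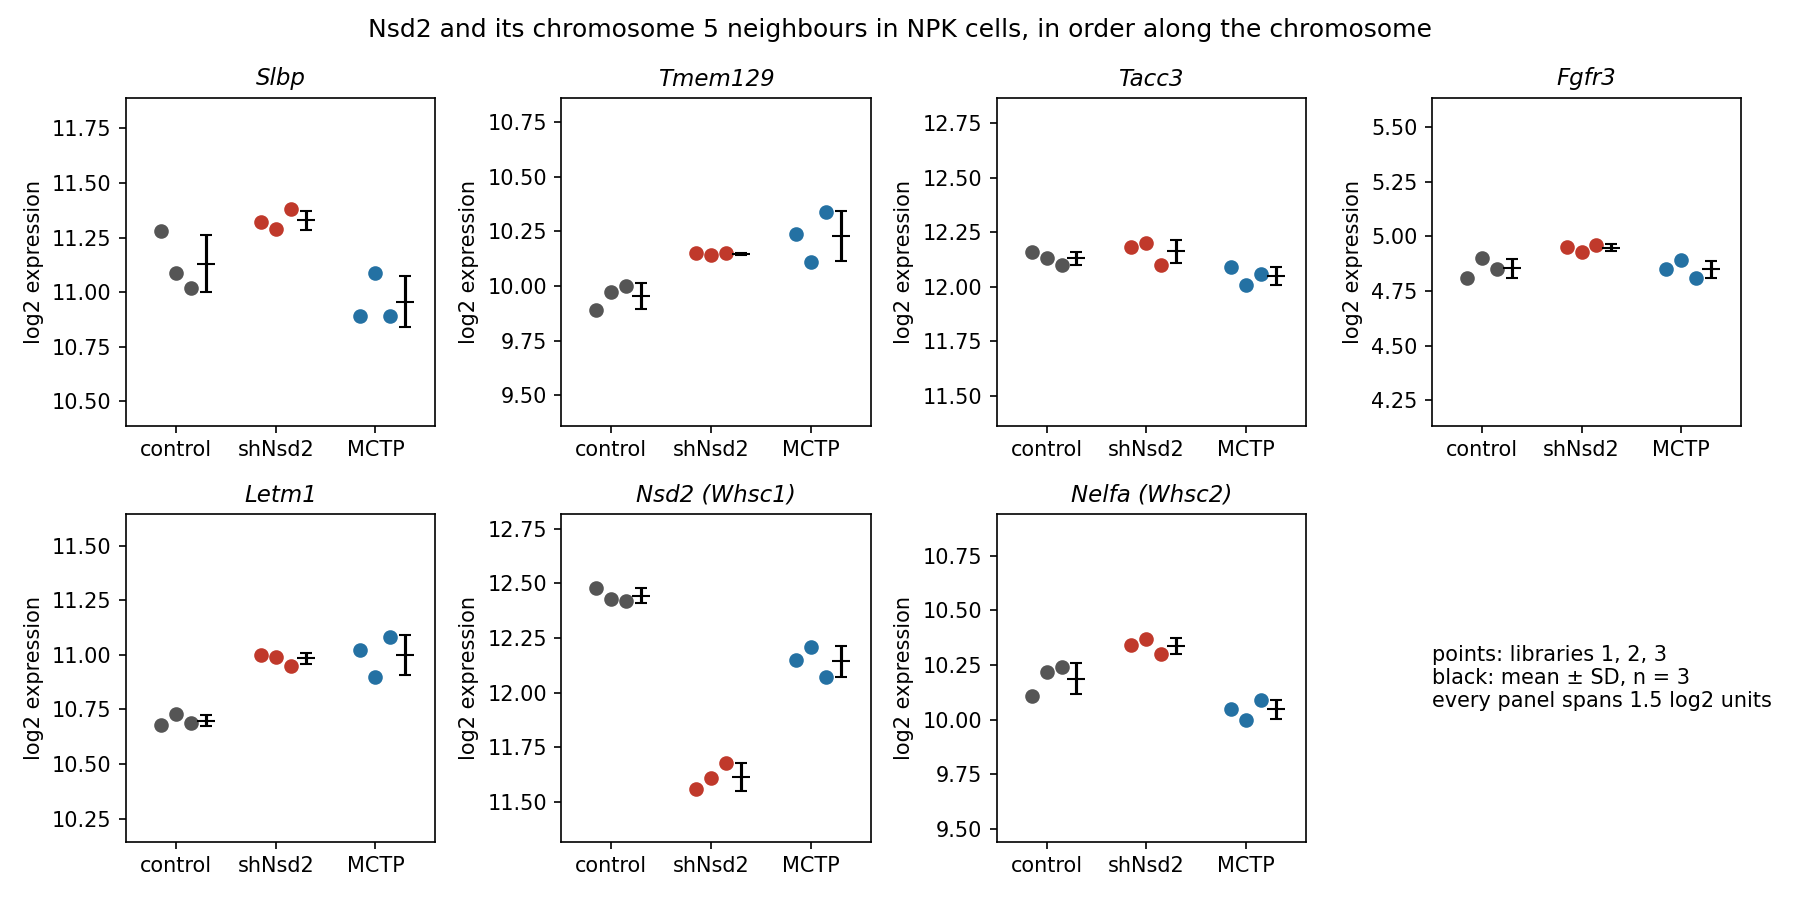
Log2 expression of Nsd2 and its 6 neighbours in each library of control, shNsd2 and MCTP cells (points), with the mean and standard deviation of 3 libraries (black); each panel spans the same range of log2 units. Letm1 is higher in all shNsd2 and MCTP libraries than in the control libraries, and Nsd2 is lower in them.

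Fgfr3 encodes a receptor tyrosine kinase that binds fibroblast growth factors at the cell surface. Fgfr3 log2 expression was 4.81, 4.90 and 4.85 in control cells, 4.95, 4.93 and 4.96 in shNsd2 cells and 4.85, 4.89 and 4.81 in MCTP cells. The shNsd2 libraries were all slightly higher than the others, and the control and MCTP libraries overlapped. The log2 fold change against control was 0.094 (standard error 0.030, 95% interval 0.026 to 0.16, adjusted p = 0.0283) for shNsd2 and -0.0049 (95% interval -0.087 to 0.077, adjusted p = 0.923) for MCTP, and shNsd2 minus MCTP was 0.099 (standard error 0.030, adjusted p = 0.0307). The call against control was lost after correction for GC content (log2 fold change 0.034, adjusted p = 0.432), without a mean-variance trend (adjusted p = 0.0584), and without any 1 of 5 of the 6 libraries (log2 fold change 0.0725 to 0.102), and was kept in 5 of 13 alternatives. The direct call was kept in 4 of 13 alternatives, and the MCTP value ran from -0.111 with GC correction and -0.0493 with quantile normalization to 0.041 with median centring, and was also above 0 without the second control or the last MCTP library, though it was called in none of these. Fgfr3 is 1 receptor of a signalling chain, and of 14 other genes of that chain 7 were called in shNsd2 cells, 2 higher and 5 lower (50% against 47.8% of all genes, median -0.0524), 6 in MCTP cells, 1 higher and 5 lower (42.9% against 35.2%, median -0.111), and 8 in the direct comparison, 4 higher and 4 lower (57.1% against 43.2%). The ligand gene Fgf1 fell by 0.67 (adjusted p = 1.25e-04) and the ligand gene Fgf2 by 0.64 (adjusted p = 3.43e-06) in shNsd2 cells, and Fgf21, a metabolic hormone of the family, rose by 0.35 (adjusted p = 3.39e-04). In MCTP cells Fgfr1, another receptor gene, fell by 0.60 (adjusted p = 4.82e-04), Spry4, an inhibitor of receptor signalling, by 0.59 (adjusted p = 2.37e-04) and Fgf2 by 0.44 (adjusted p = 9.07e-04).

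Letm1 encodes a protein of the inner mitochondrial membrane that exchanges cations for protons and is needed for mitochondrial volume control. Its log2 expression was 10.68, 10.73 and 10.69 in control cells, 11, 10.99 and 10.95 in shNsd2 cells and 11.02, 10.90 and 11.08 in MCTP cells. All treated libraries were above all control libraries, and shNsd2 and MCTP libraries overlapped. In limma the log2 change was 0.28 (standard error 0.034, 95% interval 0.21 to 0.36, adjusted p = 2.35e-04) for shNsd2, a 1.22-fold level, and 0.30 (standard error 0.059, 95% interval 0.16 to 0.44, adjusted p = 0.00767) for MCTP, a 1.23-fold level. Both calls held in each of the 13 alternative fits. The direct difference was -0.016 (95% interval -0.15 to 0.12, adjusted p = 0.836) and changed sign with GC correction, to 0.016, and without the last MCTP library, to 0.022. Of 12 genes of mitochondrial cation handling, 6 were called in shNsd2 cells, 3 higher and 3 lower (50% against 47.8% of all genes, median -0.0431), 3 in MCTP cells, 1 higher and 2 lower (25% against 35.2%, median 0.0418), and 2 directly, both lower in shNsd2 cells (16.7% against 43.2%). Micu2, a regulator of the calcium uniporter listed as Efha1, fell by 0.47 (adjusted p = 2.56e-05) in shNsd2 cells, as did the sodium-calcium exchanger Slc8b1, listed as Slc24a6, by 0.22 (adjusted p = 0.00396). The uniporter pore Mcu, listed as Ccdc109a, fell by 0.22 (adjusted p = 0.00686) in shNsd2 cells and by 0.21 (adjusted p = 0.0331) in MCTP cells. In MCTP cells the uniporter subunit Smdt1, listed as 1500032L24Rik, rose by 0.40 (adjusted p = 0.0132) and Ghitm, an inner-membrane protein gene, fell by 0.22 (adjusted p = 0.0199).

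Tmem129 encodes a ubiquitin ligase in the membrane of the endoplasmic reticulum that takes part in degradation of proteins there. Log2 expression of Tmem129 was 9.89, 9.97 and 10 in control cells, 10.15, 10.14 and 10.15 in shNsd2 cells and 10.24, 10.11 and 10.34 in MCTP cells. All treated libraries were above all control libraries, and shNsd2 and MCTP libraries overlapped. The log2 fold change against control was 0.19 (standard error 0.040, 95% interval 0.10 to 0.28, adjusted p = 0.00433) for shNsd2 and 0.28 (standard error 0.070, 95% interval 0.11 to 0.44, adjusted p = 0.0207) for MCTP. The shNsd2 call held in each of the 13 alternative fits. The MCTP call was lost without any 1 of 5 libraries (adjusted p = 0.0511 to 0.0832, log2 fold change 0.223 to 0.30), and without the second MCTP library the value was 0.336. The direct difference was -0.083 (95% interval -0.23 to 0.066, adjusted p = 0.323), and was called at -0.143 without the second MCTP library (adjusted p = 0.0197). That difference shrank to -0.0298 without the last MCTP library (adjusted p = 0.712) and to -0.0413 with GC correction (adjusted p = 0.348). Of 16 genes of this degradation pathway, 7 were called in shNsd2 cells, 4 higher and 3 lower (43.8% against 47.8% of all genes, median -0.0258), 8 in MCTP cells, 7 higher and 1 lower (50% against 35.2%, median 0.126), and 7 directly, 1 higher and 6 lower in shNsd2 cells (43.8% against 43.2%). Syvn1, a central ligase of the pathway, rose by 0.36 in shNsd2 cells (adjusted p = 4.38e-04) and by 0.41 in MCTP cells (adjusted p = 0.00475), and the cofactor Nploc4 rose by 0.26 (adjusted p = 5.63e-04) and 0.34 (adjusted p = 0.00558). The ligase gene March6 fell by 0.34 (adjusted p = 0.00506) in MCTP cells.

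Slbp encodes the protein that binds the stem-loop at the end of replication-dependent histone mRNAs and is needed for their processing and translation. Its log2 expression was 11.28, 11.09 and 11.02 in control cells, 11.32, 11.29 and 11.38 in shNsd2 cells and 10.89, 11.09 and 10.89 in MCTP cells. All shNsd2 libraries were above all control and all MCTP libraries, narrowly so over the first control library, and the second MCTP library was at the level of the second control library. In limma the log2 change was 0.20 (standard error 0.061, 95% interval 0.058 to 0.34, adjusted p = 0.0262) for shNsd2 and -0.17 (standard error 0.085, 95% interval -0.37 to 0.023, adjusted p = 0.140) for MCTP, and shNsd2 minus MCTP was 0.37 (standard error 0.066, 95% interval 0.22 to 0.53, adjusted p = 0.00399). The direct difference was called in each of the 13 alternative fits, between 0.337 and 0.440. The shNsd2 call was lost with all 9 libraries in the fit (adjusted p = 0.0668) and without the second or last control library (log2 fold change 0.178 and 0.144, adjusted p = 0.0903 and 0.0839) or the first or last shNsd2 library (log2 fold change 0.202 and 0.174, adjusted p = 0.0647 and 0.0744). Without the second MCTP library the MCTP value was -0.242 and was called (adjusted p = 0.0123). That value shrank to -0.101 without the first control library (adjusted p = 0.403) and to -0.114 with GC correction (adjusted p = 0.185). Of 14 genes of histone mRNA processing, 7 were called in shNsd2 cells, 6 higher and 1 lower (50% against 47.8% of all genes, median 0.0703), 2 in MCTP cells, 1 higher and 1 lower (14.3% against 35.2%, median -0.113), and 5 in the direct comparison, all higher in shNsd2 cells (35.7% against 43.2%, median 0.139). Casp8ap2, which recruits the processing machinery, rose by 0.30 (adjusted p = 0.0377) in shNsd2 cells and differed by 0.66 (adjusted p = 0.0109) from MCTP cells. Its values were 9.35, 9.09 and 8.97 in control cells and 9.41, 9.30 and 9.62 in shNsd2 cells, so these groups overlapped. In MCTP cells the values of Casp8ap2 were 8.67, 9.12 and 8.55, with the second library highest. In shNsd2 cells Mif4gd, which links Slbp to translation, rose by 0.24 (adjusted p = 0.00259) and Upf1, an RNA decay helicase, by 0.24 (adjusted p = 0.00201).

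Nelfa encodes a subunit of the negative elongation factor, which holds RNA polymerase II paused near promoters. Log2 expression of Nelfa was 10.11, 10.22 and 10.24 in control cells, 10.34, 10.37 and 10.30 in shNsd2 cells and 10.05, 10 and 10.09 in MCTP cells. The 3 groups did not overlap, with shNsd2 highest and MCTP lowest. Against control, the log2 change was 0.15 (standard error 0.045, 95% interval 0.047 to 0.25, adjusted p = 0.0233) for shNsd2 and -0.14 (standard error 0.057, 95% interval -0.27 to -0.0061, adjusted p = 0.0920) for MCTP, and shNsd2 minus MCTP was 0.29 (standard error 0.048, 95% interval 0.18 to 0.40, adjusted p = 0.00302). The direct difference was called in each of the 13 alternative fits, between 0.265 and 0.309. The shNsd2 call was lost without the first shNsd2 library (0.145, adjusted p = 0.0738) or the second (0.133, adjusted p = 0.0939). The MCTP value was called with all 9 libraries in the fit (adjusted p = 0.0395) and after correction for GC content (-0.141, adjusted p = 0.0311). Median centring reduced the MCTP value to -0.0928 (adjusted p = 0.276) and quantile normalization to -0.106 (adjusted p = 0.21). Of 11 genes of pausing and release, 4 were called in shNsd2 cells, all 4 higher (36.4% against 47.8% of all genes, median 0.0424), 4 in MCTP cells, 3 higher and 1 lower (36.4% against 35.2%, median 0.0467), and 4 directly, 2 higher and 2 lower (36.4% against 43.2%). Cdk9, the kinase that releases the paused polymerase, rose by 0.25 (adjusted p = 0.00228) in shNsd2 cells, the NELF subunit Nelfcd, listed as Th1l, by 0.25 (adjusted p = 0.00123) and Supt4h1, a subunit of the pausing factor DSIF, by 0.19 (adjusted p = 0.00514). In MCTP cells Supt4h1 rose by 0.36 (adjusted p = 0.00897), Hexim1, an inhibitor of Cdk9, rose by 0.21 (adjusted p = 0.0245), and the cyclin gene Ccnt1 fell by 0.27 (adjusted p = 0.0182).

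Tacc3 encodes a protein that binds clathrin and the microtubule polymerase ch-TOG and stabilises fibres of the mitotic spindle. Its log2 expression was 12.16, 12.13 and 12.10 in control cells, 12.18, 12.20 and 12.10 in shNsd2 cells and 12.09, 12.01 and 12.06 in MCTP cells. The control and shNsd2 libraries overlapped, and the MCTP libraries were below both by little. Relative to control, the log2 change was 0.032 (95% interval -0.054 to 0.12, adjusted p = 0.515) for shNsd2 and -0.080 (95% interval -0.19 to 0.030, adjusted p = 0.214) for MCTP, and shNsd2 minus MCTP was 0.11 (95% interval -0.0013 to 0.22, adjusted p = 0.0985). After correction for GC content the MCTP value and the direct difference were called, at -0.121 (adjusted p = 0.0251) and 0.143 (adjusted p = 0.00717), whereas median centring gave -0.0337 (adjusted p = 0.625) and 0.0885 (adjusted p = 0.226). Leaving out each library moved the shNsd2 value between 0.0107 and 0.0615, and it was not called in any alternative. A list of 10 genes held genes of this complex and others linked to it, such as relatives of Tacc3. Of these, 4 were called in shNsd2 cells, 2 higher and 2 lower (40% against 47.8% of all genes, median -0.0639), 6 in MCTP cells, 2 higher and 4 lower (60% against 35.2%, median -0.0864), and 6 directly, 3 higher and 3 lower (60% against 43.2%). Tacc1, a relative of Tacc3, fell by 0.66 (adjusted p = 3.92e-06) in shNsd2 cells, and the kinase gene Aurka and the microtubule-binding gene Gtse1 rose by 0.31 (adjusted p = 2.76e-04) and 0.24 (adjusted p = 0.00132). In MCTP cells Ckap5, which encodes ch-TOG, fell by 0.59 (adjusted p = 0.00823), with values of 11.68, 12.09 and 11.68, with the second library nearest the controls. Gtse1 rose by 0.57 (adjusted p = 6.61e-04) and the clathrin light chain gene Cltb by 0.45 (adjusted p = 0.00852) in MCTP cells.

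Nsd2 mRNA relative to each neighbour, the difference of their log2 values within a library, removes scaling between libraries. Nsd2 minus Nelfa, the gene that shares its end, was 2.38, 2.22 and 2.18 in control cells, 1.21, 1.24 and 1.38 in shNsd2 cells and 2.10, 2.21 and 1.98 in MCTP cells. The control and shNsd2 libraries did not overlap, by -0.977 on average (p = 0.1 in an exact two-sided permutation test, which cannot go lower with 3 libraries against 3), whereas control and MCTP overlapped (-0.161, exact p = 0.2). For Letm1, on the other side, Nsd2 minus Letm1 was 1.81, 1.71 and 1.72 in control cells, 0.55, 0.61 and 0.73 in shNsd2 cells and 1.13, 1.31 and 1.0 in MCTP cells. The 3 groups did not overlap (exact p = 0.1 for each pair). Across all 6 neighbours the mean shNsd2 difference from control ran from -0.86 for Tacc3 to -1.11 for Letm1, each with exact p = 0.1. The log2 fold change of Nsd2 itself was -0.83 with shNsd2, so these differences largely restate the silencing and do not test the neighbours. The mean MCTP difference from control was -0.601 for Letm1, -0.576 for Tmem129, -0.295 for Fgfr3 and -0.22 for Tacc3, without overlap (each with exact p = 0.1), whereas Slbp, at -0.126, overlapped as Nelfa did (exact p = 0.2).

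The wider neighbourhood was examined within 1 Mb of Nsd2, where GENCODE lists 35 protein-coding genes, 26 of them in the table. Without Nsd2, 25 genes were tested, and 12 were called in shNsd2 cells, 9 higher and 3 lower, 48.0% against 47.8% of all genes. In MCTP cells 8 were called, 5 higher and 3 lower, 32.0% against 35.2%. Without Nsd2 and its 6 neighbours, 7 of 19 were called in shNsd2 cells (36.8%) and 6 of 19 in MCTP cells (31.6%). In windows of 0.5 Mb and 2 Mb without Nsd2, the share was 50% in both for shNsd2, and 21.4% and 40% for MCTP. Leaving out the 6 neighbours too, it was 25% and 44.1% for shNsd2 and 12.5% and 41.2% for MCTP.

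Spon2, which encodes a secreted matrix protein, was listed at 7.59, 7.61 and 7.61 in control cells, 7.14, 7.01 and 6.92 in shNsd2 cells and 8.85, 8.66 and 8.92 in MCTP cells. Mxd4, which encodes a repressor partner of Max, was listed at 8.98, 8.95 and 8.94 in control cells, 9.17, 9.20 and 9.16 in shNsd2 cells and 10.38, 10.18 and 10.49 in MCTP cells. Neither gene overlapped between any pair of groups, and both were far higher in MCTP cells. The log2 fold change with MCTP was 1.21 (adjusted p = 6.06e-05) for Spon2 and 1.39 (adjusted p = 5.70e-05) for Mxd4, larger than that of any neighbour. With shNsd2, Spon2 fell by 0.58 (adjusted p = 7.31e-05) and Mxd4 rose by 0.22 (adjusted p = 0.00177). The other genes called with shNsd2 were Ywhah (-0.35) and Uvssa, listed as 4933407H18Rik (-0.49), both lower, and Ctbp1 (0.19), Sh3bp2 (0.27) and Mfsd10 (0.15), all higher. Those called with MCTP were Sh3bp2 (0.39), higher, and Prr14l, listed as C330019G07Rik (-0.37), Depdc5 (-0.19) and Nop14 (-0.29), lower. In the direct comparison Spon2 (-1.79), Mxd4 (-1.17), Ywhah (-0.35), Fam193a (-0.16) and Add1 (-0.18) were lower in shNsd2 cells, and Haus3 (0.52), Nop14 (0.37), Prr14l, listed as C330019G07Rik (0.40), and Depdc5 (0.26) were higher.

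**Figure D3:**
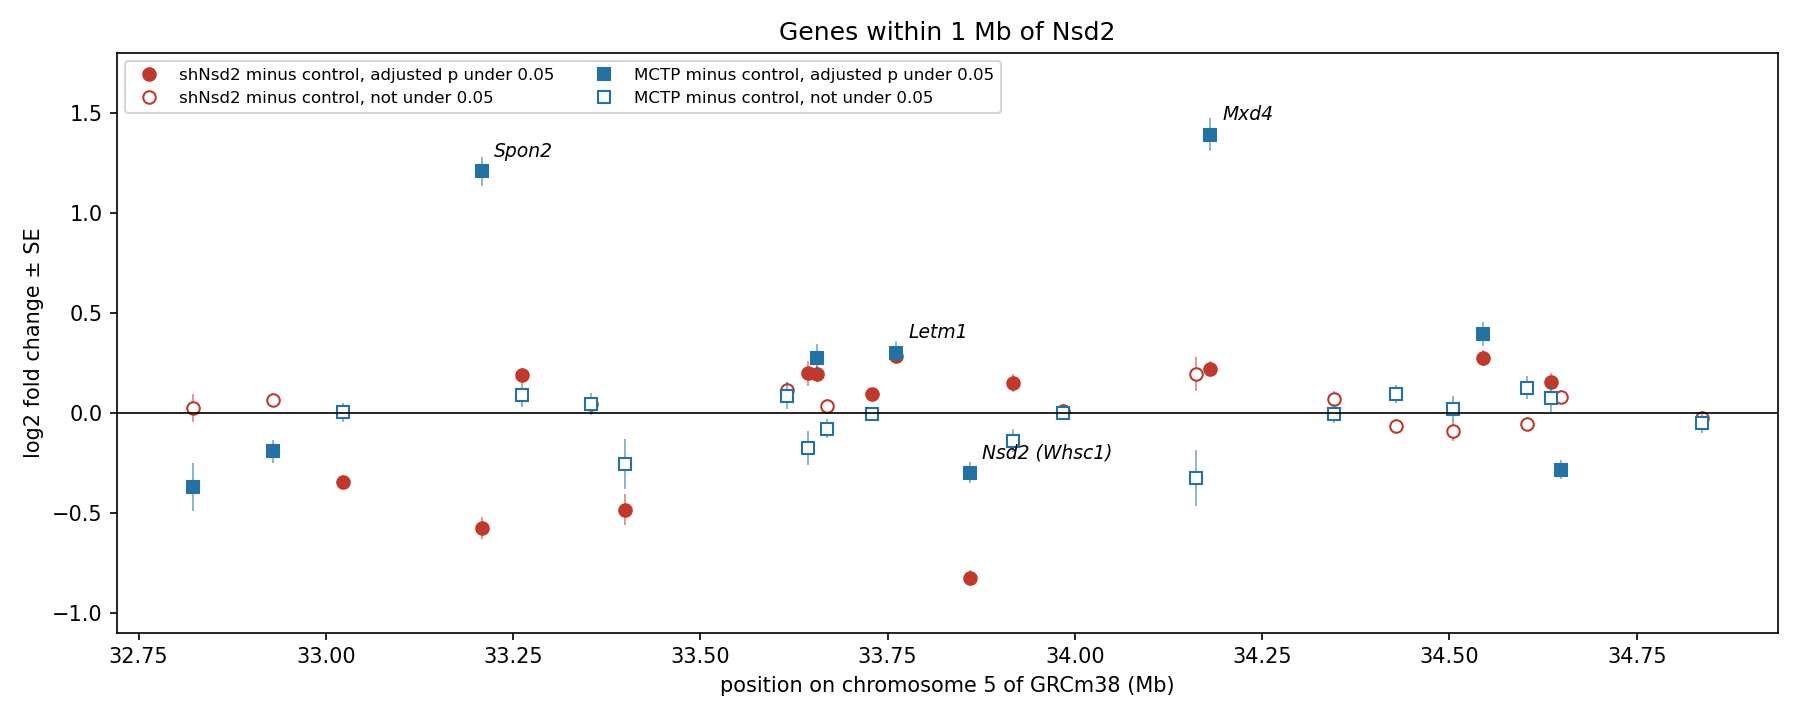
Log2 fold change against control cells of 26 genes within 1 Mb of Nsd2, by position on chromosome 5 of GRCm38 (points with standard errors from limma; filled where the adjusted p was below 0.05, circles for shNsd2 and squares for MCTP, 3 libraries a group). Spon2 and Mxd4 stand above the other genes with MCTP, at 1.21 and 1.39.

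Other histone-modifying genes of the NSD family and of the same mark were compared in the same way. Of 6 such genes 1 was called in shNsd2 cells, Kdm2b (0.17, adjusted p = 0.00400), a demethylase gene, and 2 in MCTP cells, Nsd1 (-0.49, adjusted p = 0.00968) and Ash1l (-0.40, adjusted p = 0.0417), both methyltransferase genes. Nsd1 was listed at 11.45, 11.69 and 11.30 in MCTP cells against 12.08, 11.88 and 11.95 in control cells, and Ash1l at 10.98, 11.39 and 10.93 against 11.65, 11.44 and 11.41, so the second MCTP library was nearest the control libraries for both. These were 16.7% of the list against 47.8% of all genes with shNsd2 and 33.3% against 35.2% with MCTP, and the median log2 fold change of the 6 genes was -0.0074 and -0.30. In the direct comparison 4 of 6 were called, all higher in shNsd2 cells (66.7% against 43.2%, median 0.305).

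The marker genes of cell types also moved. Of 4 mesenchymal markers 2 rose and 1 fell with MCTP, and 3 fell with shNsd2. The log2 of their summed linear values, led by Vim, was 17.19, 17.29 and 17.26 in control cells, 17.58, 17.43 and 17.67 in MCTP cells and 17.11, 17.13 and 17.02 in shNsd2 cells. The MCTP libraries were higher and the shNsd2 libraries lower than the control libraries. Acta2, smooth muscle actin, was listed at 5.83, 6.03 and 5.98 in control cells and 8.91, 8.81 and 9.16 in MCTP cells (log2 fold change 3.02, standard error 0.096, adjusted p = 7.18e-06). Of 5 epithelial markers tested, 1 rose and 3 fell with shNsd2, and 1 rose and 1 fell with MCTP, with summed values, led by Krt8, of 16.87, 17.04 and 16.99 in control, 17.16, 16.95 and 17.28 in MCTP and 16.91, 16.85 and 16.75 in shNsd2 cells. Cd68, the 1 immune marker in the table, rose in both comparisons, at 6.50, 6.51 and 6.60 in control, 7.20, 7.15 and 7.44 in MCTP and 6.78, 6.78 and 6.72 in shNsd2 cells. The part of these changes in the results for the neighbours was not tested.

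For each neighbour the 3 genes of most similar pattern over the 9 libraries were found among 12188 genes, by the root mean square (RMS) difference between the genes' deviations from their own means. For Letm1 they were Sap30bp (RMS 0.0203), Trub2 (0.0215) and Mtor (0.0246), against an RMS of 0.146 for the deviations of Letm1 itself. Tmem129 was matched most closely by Ppil2 (0.0180), Usp19 (0.0206) and Tmem184b (0.0214), and Slbp by Gm9938 (0.0263), Pspc1 (0.0339) and Fbxo5 (0.0388). Nelfa was matched by Sec14l1 (0.0199), Sf1 (0.0248) and Surf6 (0.0251). Tacc3 was matched by Cdk1 (0.0255), a kinase of mitotic entry, Dpy30 (0.0256) and Phf15 (0.0280), and Fgfr3 by Atg2b (0.0229), Tmem170 (0.0259) and 2210019I11Rik (0.0263). The RMS of the neighbour's own deviations was 0.130 for Tmem129, 0.174 for Slbp and 0.125 for Nelfa, but only 0.0581 for Tacc3 and 0.0536 for Fgfr3, so the matches of these last 2 are loose relative to their own variation. Of these 18 genes Gm9938 was not matched in the annotation, 2210019I11Rik lies on chromosome 5, and none of those matched lies in the 1 Mb window.

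Promoter sequences from RefSeq on GRCm38.p6 are shown for Letm1, 1 of the 2 neighbours that rose in both comparisons, and for Slbp and Nelfa, 2 of the 3 called between shNsd2 and MCTP, as the bases upstream of the annotated gene, 5′ to 3′ on the - strand. All 6 neighbours matched in the table, with 7 windows of 300 bases. Capitals mark CCAAT and ACTACAA, read on both strands (ATTGG and TTGTAGT), which do not overlap each other here. The motifs were chosen with the sequences in view. Among 32851 windows CCAAT or its reverse was in 37.4% and ACTACAA or its reverse in 3.24%; GGGCGG or CCGCCC was in 35.7% and in all 7 windows of the neighbours, and CACGTG was in 7.15% and in 0 of the 7. CCAAT was found in windows of Fgfr3, Letm1 and Slbp and ACTACAA in that of Letm1. The stretches printed here are shorter than the windows. None of them holds GGGCGG or CCGCCC, and that of Letm1 holds no CCAAT. A match describes letters and is not a binding site.
Letm1, chr5:33782818-33782967, 150 bases: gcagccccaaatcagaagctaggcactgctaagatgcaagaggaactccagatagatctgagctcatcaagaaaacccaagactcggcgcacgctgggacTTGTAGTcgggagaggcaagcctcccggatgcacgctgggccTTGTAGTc
Slbp, chr5:33652575-33652824, 250 bases: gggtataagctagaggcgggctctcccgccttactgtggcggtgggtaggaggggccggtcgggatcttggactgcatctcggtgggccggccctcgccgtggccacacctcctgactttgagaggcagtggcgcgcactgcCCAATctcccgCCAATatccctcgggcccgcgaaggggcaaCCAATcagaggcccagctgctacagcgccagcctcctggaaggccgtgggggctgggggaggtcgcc
Nelfa, chr5:33936414-33936521, 108 bases: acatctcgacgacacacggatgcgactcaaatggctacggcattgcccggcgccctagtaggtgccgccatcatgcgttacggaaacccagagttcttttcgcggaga
The Letm1 stretch holds TTGTAGT 2 times, the Slbp stretch CCAAT 3 times, and the Nelfa stretch neither motif.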

How the data were processed

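Polyadenylated RNA of 9 libraries was profiled on an Illumina instrument after library preparation with a TruSeq kit. The values that the authors deposited are log2 expression levels, from 1.63 to 18.47, of 12842 genes in each library. The submitters' processing notes name bcl2fastq 1.8.4, TopHat, Cufflinks, DESeq, DESeq2 and build mm9, without role or order, and the study's methods describe normalization and variance stabilization with DESeq2 for tumour profiles only; the transform of these log2 values is not given in the sources used here. The table analysed here holds no read counts, so library depth is unknown and tests for counts were not used. The table has 3 further columns of values that match no sample, and they were not used.

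Samples were grouped by title. For each comparison, genes were kept whose value passed 3.78, the median of the lowest 10% of values, in 3 or more of its 6 libraries. They were tested with limma 3.58.1 in R 4.3.3, using empirical Bayes with a trend of variance on level; p-values were adjusted across these genes by the Benjamini-Hochberg method, and those below 0.05 were called. Single values were compared by exact two-sided permutation tests. The steps were tested on simulated data. Of 12842 identifiers, 12513 (97.4%) were found in GENCODE M21 on GRCm38 by Ensembl identifier without version. Named genes were the neighbours, Nsd2, called genes within 1 Mb, up to 3 called genes of largest log2 fold change per list and comparison, and for each neighbour the 3 genes of closest pattern; Acta2 and Cd68 come from the marker list. A few named genes and alleles are left out of the text. The neighbours and the lists were chosen with earlier results of these data known. List and marker genes were first looked up by the table's symbol alone, and the lookup was widened to current GENCODE names after counts had been seen, because older symbols had been missed. Alternatives were no filter, all 9 libraries in 1 fit, the replicate number as a block, each library left out, quantile normalization, median centring, no trend, GC correction (lowess, span 0.3) and windows of 0.5 Mb and 2 Mb. Tables and figures were made with pandas 2.3.3 and matplotlib 3.10.9 in Python 3.11.15.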

Additional observations from a re-analysis of the deposited data

How the results depend on the processing

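Of 234 alternative values for the 18 log2 fold changes of the neighbours, 193 kept direction and side of the threshold, 30 lost the call, 6 gained one and 5 changed sign; causes were not tested unless named. Letm1 kept both calls against control, and Nelfa and Slbp kept the direct call between shNsd2 and MCTP, in all 13 alternatives.

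For shNsd2 against control, leaving out each library gave 0.0725 to 0.115 for Fgfr3 (called in 1 of 6), 0.109 to 0.175 for Nelfa (4 of 6), and 0.144 to 0.270 for Slbp (2 of 6). The Fgfr3 call was also lost without a trend (0.094, adjusted p = 0.0584) and with GC correction (0.0343, adjusted p = 0.432), and the Slbp call with all 9 libraries (0.197, adjusted p = 0.0668).

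For MCTP against control, leaving out each library moved the number of genes called from 4305 to between 2046 and 7384. The range was -0.0264 to 0.0165 for Fgfr3 (0.0165 without control replicate 2, 0.0146 without MCTP replicate 3), -0.242 to -0.101 for Slbp and 0.223 to 0.336 for Tmem129. For Fgfr3 GC correction gave -0.111 (adjusted p = 0.174), quantile normalization -0.0493 and median centring 0.0413. With median centring 2807 of 4357 calls were higher (64.4%), against 2198 of 4305 (51.1%). Nelfa gained a call with all 9 libraries (-0.139) and GC correction (-0.141), and Tacc3 with GC correction (-0.121).

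For shNsd2 against MCTP, leaving out each library moved the count from 5276 to between 3391 and 7781. The range was 0.0794 to 0.118 for Fgfr3, -0.0661 to 0.0223 for Letm1 (0.0223 without MCTP replicate 3) and -0.143 to -0.0298 for Tmem129. Fgfr3 lost its call with median centring (0.0759), without a trend (0.0989) and with GC correction (0.153). GC correction gave 0.016 for Letm1 and 0.143 for Tacc3.

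The replicate numbers come from the titles, but same-numbered libraries did not deviate together in every pair: single pairs ran from -0.509 to 0.244 for shNsd2 and control, -0.596 to 0.609 for MCTP and control and -0.802 to 0.35 for shNsd2 and MCTP, and mean correlations were -0.25 for shNsd2 and control, -0.184 for MCTP and control and -0.36 for shNsd2 and MCTP, against 0.155, 0.142 and 0.226 for other numbers. With the replicate block, 4515, 3399 and 3794 genes were called in the 3 comparisons in that order, and the values were 0.094 (adjusted p = 0.059) for Fgfr3 and 0.149 (adjusted p = 0.0633) for Nelfa with shNsd2, and 0.0989 (adjusted p = 0.0799) for Fgfr3 in the direct comparison; the block changed no other call of the neighbours. DESeq2 and other size factors were not run, since the values are log2 levels, and the unknown depth limits all low values.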
